A study of Mus musculus with 9 samples.

Results

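The WNT signalling genes examined here were 40 protein-coding genes fixed by name: 19 WNT ligands, 10 Frizzled receptors, the co-receptors Lrp5 and Lrp6, the secreted antagonist Dkk1, the destruction complex genes Axin1, Axin2 and Apc, the β-catenin gene Ctnnb1, and the TCF/LEF factor genes Tcf7, Lef1, Tcf7l1 and Tcf7l2. All 40 were found among the 21887 mouse protein-coding genes of the mm10 annotation. A ChIP-seq peak belonged to a gene when its summit lay inside the gene body or, for a summit between genes, when that gene was the nearest within 100 kb. The end of a gene means either end of its gene body below, so it can be the start of the gene.

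Occupancy of the bHLH factor TWIST1 was mapped by chromatin immunoprecipitation with an antibody to TWIST1 in C57BL/6 mouse embryonic stem cells (line A2loxcre) differentiated for 3 days as embryoid bodies. The overexpressing cells (Twist1-OE) were a Twist1-/- line with a cassette for Flag-tagged Twist1 that doxycycline switches on, and the control cells (Twist1-KO) were Twist1-/- without that cassette. Both received doxycycline for 16 h. Every group thus lacks endogenous TWIST1, and the OE signal is that of an induced transgene in an engineered line. There were 4 Twist1-OE ChIP libraries (OE 1 to 4), 2 Twist1-KO ChIP libraries (KO 2 and KO 3) and 1 Twist1-KO input, and 2 Twist1-OE inputs were not analysed here. The cells were a bulk population, in which weak occupancy of many cells and strong occupancy of few cannot be told apart. Peak lists hold no expression values, so the cell type on the label could not be checked against marker genes.

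WNT proteins are secreted, lipid-modified ligands that bind a Frizzled receptor together with LRP5 or LRP6. Binding stops the destruction complex, built on Axin and APC, from degrading β-catenin, which then enters the nucleus and turns TCF/LEF factors into activators. The pathway acts in primitive streak formation, neural patterning and neural crest induction, and TWIST1 is best known from cranial mesenchyme and neural crest. TWIST1 dimerises with E-proteins on the E-box, CANNTG.

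The OE lists held 22308, 106750, 87385 and 14078 peaks on the 21 main chromosomes in OE 1 to 4, against 94 in KO 2, 62 in KO 3 and 1642 in the KO input. Library read totals were not used here. The background pileup implied by each peak's fold and p-value stood in for depth. Its commonest level was 1.00, 5.38, 5.29 and 1.20 fragments in OE 1 to 4, 4.73 and 5.09 in KO 2 and KO 3, and 6.46 in the input. By this stand-in OE 2 and OE 3 were deeper than OE 1 and OE 4 and about as deep as the KO libraries. Depth itself was not measured, and the caller's settings and control were not known. Nothing in the labels says that the libraries came from separate cultures beyond the design text's mention of biological replicates, so spreads measure only the difference between these libraries.

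Most WNT genes carried TWIST1 peaks in the overexpressing cells and almost none did in the knockout. Peaks assigned to the 40 genes numbered 84, 373, 320 and 67 in OE 1 to 4 (mean 211 ± 158, SD, n = 4), against 1 in KO 2, 0 in KO 3 and 1 in the KO input. The OE mean was 137 peaks with a −log10 q-value of at least 10, 102.5 inside gene bodies only and 63 with the OE lists brought to equal length. In OE 1 to 4, 34, 39, 39 and 32 of the 40 genes had at least 1 peak. The shares were 85% in OE 1, 97.5% in OE 2 and in OE 3 and 80% in OE 4, against 47.2%, 80.6%, 77.5% and 37.4% of all genes in OE 1 to 4. In KO 2 the share was 2.5% of the WNT genes, against 0.21% of all genes. No WNT gene had a peak in KO 3, where 0.0959% of all genes did. In the input 2.5% of the WNT genes had a peak, against 5.28% of all genes.

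**Figure D1:**
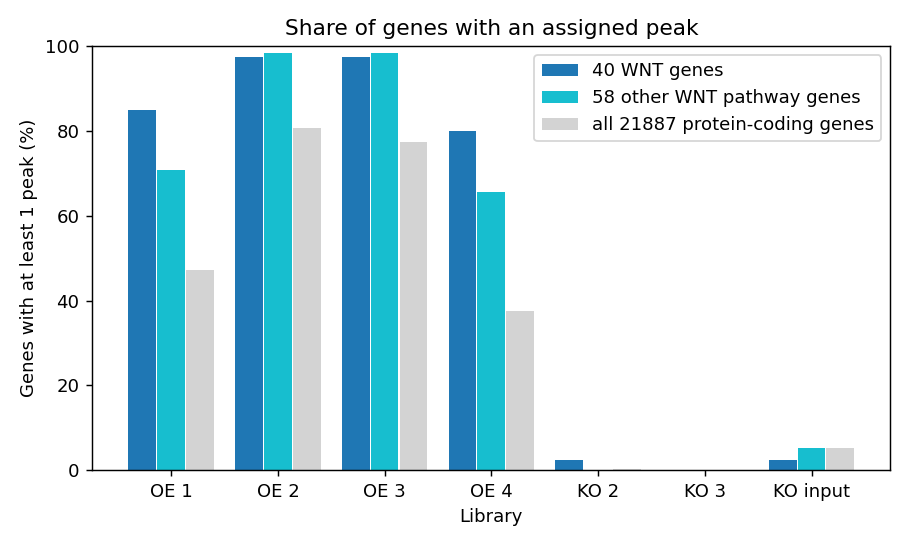
Bars give the percentage of genes with at least 1 assigned peak (y axis, 0 to 100%) in each library (x axis), for the 40 WNT genes (blue), 58 other WNT pathway genes (cyan) and all 21887 protein-coding genes (grey). In OE 1 and OE 4 the blue bars reach 85% and 80%, against grey bars of 47.2% and 37.4%, and in the KO libraries all bars are at or near 0.

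For 32 of the 40 WNT genes every OE library had more peaks than either KO library (34.9% of all genes did). The other 8 had no peak in at least 1 OE library, so their groups touched at 0. On mean log2(peaks + 1), the exact permutation test (two-sided, 15 splits of the 6 ChIP libraries) gave p = 0.0667 for 15 of the WNT genes, all with more peaks in every OE library, the smallest value that this design allows, and 4160 of all genes reached it too. Adjusted over all 21887 genes by Benjamini-Hochberg, the exact permutation p for those 15 was 0.351, and no gene of the genome had an adjusted or an unadjusted p under 0.05. The single KO peak and the single input peak were the same site, chr11:109011646-109012100 in the input, 61090 bp from Axin2. All 4 OE libraries also had a peak there, with folds of 4.91, 4.67, 4.52 and 3.47, against 1.61 in KO 2 and 7.74 in the input. That site was left out of the shared regions below but remains in the peak numbers.

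**Figure D2:**
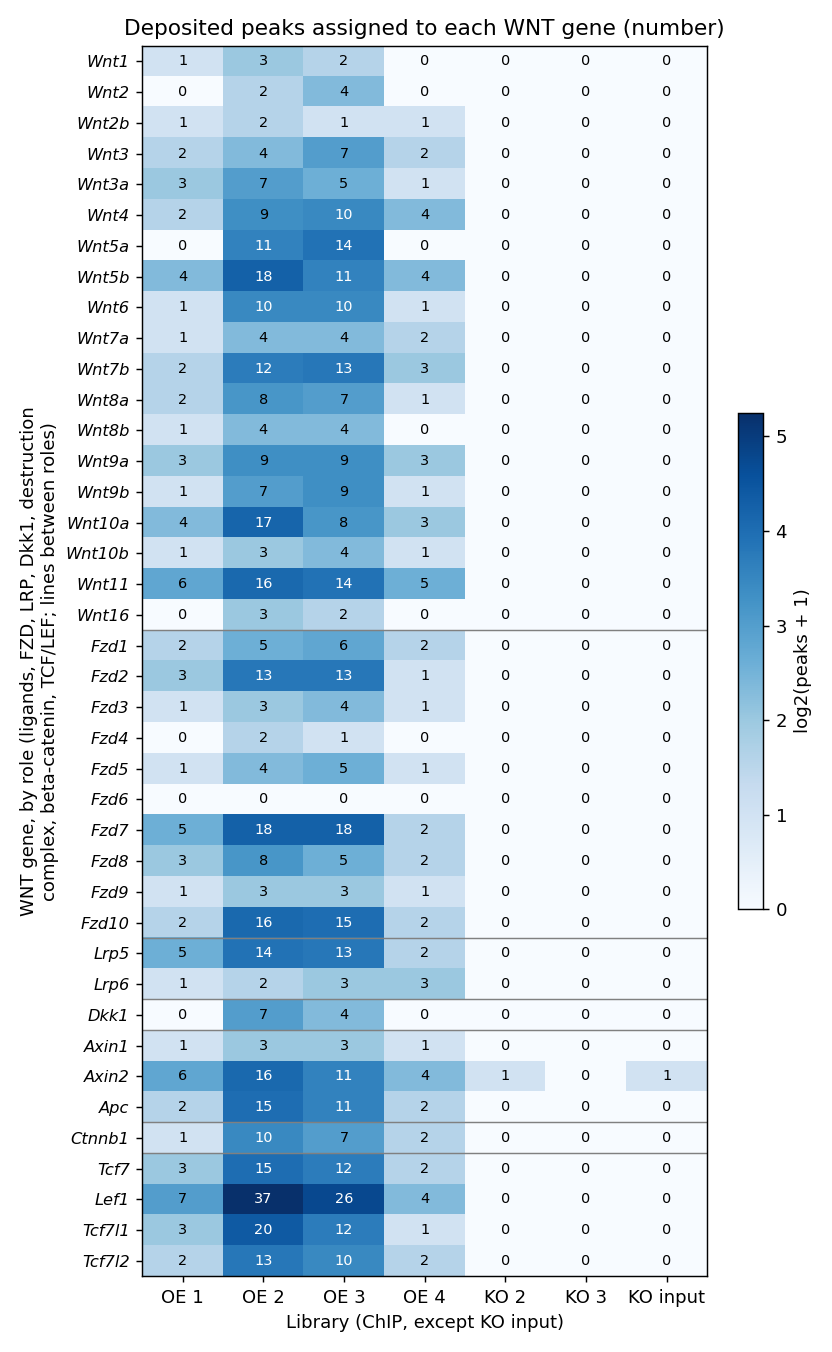
Each cell gives the number of deposited peaks assigned to a WNT gene (rows, by role) in a library (columns, OE left of KO and input), and the colour is log2(peaks + 1). Lef1 has the darkest row, with 37 peaks in OE 2 and 26 in OE 3, Fzd6 is empty throughout, and the KO and input columns hold 1 peak each in KO 2 and the input, both at Axin2.

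Where peaks of OE 1, OE 2, OE 3 and OE 4 overlapped and nothing was called in the KO ChIP or input lists, the merged interval was counted as a shared region. Of the 40 WNT genes 29 (72.5%) had at least 1 shared region, against 30.3% of all genes, and 14 (35%) had 2 or more, against 8.44%. The genome held 10375 shared regions, of which 49 belonged to WNT genes. WNT genes also own wider stretches of genome: the length assigned to a gene under the 100 kb rule had a median of 81.8 kb for WNT genes and 45.5 kb for all genes. Per megabase of that length there were 12.5 shared regions at WNT genes and 4.98 at all genes. Inside gene bodies alone, 21 WNT genes (52.5%) had a shared region, against 21.2% of all genes. The count fell with stricter matching, to 13 WNT genes (32.5%, against 16.8% of all genes) with all summits within 100 bp and to 16 (40%, against 15.7%) when the OE lists were brought to equal length.

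By role, shared regions lay at 12 of 19 ligand genes, 8 of 10 Frizzled genes, 1 of 2 LRP genes, all 3 destruction complex genes, Ctnnb1 and all 4 TCF/LEF genes, and not at Dkk1. With OE lists of equal length these became 8 ligand genes, 4 Frizzled genes (Fzd1, Fzd2, Fzd7 and Fzd8), Lrp5, 1 destruction complex gene (Apc) and 2 TCF/LEF genes (Lef1 and Tcf7l2), without Ctnnb1. The ligand genes lost were Wnt6, Wnt7a, Wnt7b and Wnt9b. With all summits within 100 bp they became 6 ligand genes, 2 Frizzled genes (Fzd1 and Fzd8), Lrp5, Apc and 3 TCF/LEF genes (Lef1, Tcf7l1 and Tcf7l2), again without Ctnnb1. The ligand genes lost there were Wnt6, Wnt7a, Wnt7b, Wnt8a, Wnt9b and Wnt10b. Each peak carries a fold, its enrichment over local background as the authors' caller gave it, and the percentile of that fold is its rank within the library's own list. The mean percentile over the 4 OE libraries had a median of 72.7 for the 49 WNT regions and 71.2 for all gene-assigned regions, and 8 WNT regions (16.3%) had 90 or more, against 15.0% of all. At the summits of the 49 regions the recovered pileup had a median of 37 fragments in OE 1 (11 to 224), 86 in OE 2 (20 to 1803), 92 in OE 3 (18 to 1563) and 29 in OE 4 (11 to 136). At a site with the commonest background, a peak needed a fold of about 3.66 to enter the KO 2 list and 3.61 to enter the KO 3 list. Of the 49 regions, 46 exceeded both of these levels in OE 2 and 48 did so in OE 3. At a site with the commonest background, enrichment below those levels in the knockout would not have been listed. Elsewhere folds as low as 1.09 in KO 2 and 1.16 in KO 3 were listed.

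The start sites of 12 WNT genes lay inside a shared region, among the 28 WNT genes with an entry in the RefSeq promoter table. Counted by promoter entry, 14 of the 37 WNT promoters had their start in one, against 15.9% of the promoters of all protein-coding genes. For the 5 genes with the highest mean percentile of fold, the merged region covers the start shown. The median summit lay outside the printed window at Fzd5, Wnt9a and Axin2 and inside it at Fzd10 and Tcf7l2. The summits of the OE libraries spread over 413 bp at Fzd5, 1237 bp at Wnt9a, 2437 bp at Fzd10, 62 bp at Tcf7l2 and 991 bp at Axin2. The windows are thus not the sequence under the summits in every case. Each window runs 5′ to 3′ on the gene's strand from 250 bases before the start to 50 after it (RefSeq, GRCm38.p6, whose main chromosomes have mm10 coordinates), with every E-box CANNTG in capitals.
Fzd5 (chr1:64737701-64738000, minus strand): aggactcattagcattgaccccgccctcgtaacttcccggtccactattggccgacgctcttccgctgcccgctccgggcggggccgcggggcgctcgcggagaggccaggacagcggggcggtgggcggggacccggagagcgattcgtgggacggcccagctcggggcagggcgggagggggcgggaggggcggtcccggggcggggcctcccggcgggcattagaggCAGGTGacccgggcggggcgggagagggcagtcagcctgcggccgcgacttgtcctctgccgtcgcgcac
Wnt9a (chr11:59306680-59306979, plus strand): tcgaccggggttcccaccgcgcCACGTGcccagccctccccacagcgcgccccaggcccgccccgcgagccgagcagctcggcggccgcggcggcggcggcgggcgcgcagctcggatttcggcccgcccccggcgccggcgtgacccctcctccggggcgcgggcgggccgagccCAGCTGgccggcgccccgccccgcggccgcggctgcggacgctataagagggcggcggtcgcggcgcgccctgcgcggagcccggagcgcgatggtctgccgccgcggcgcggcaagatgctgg
Fzd10 (chr5:128600856-128601155, plus strand): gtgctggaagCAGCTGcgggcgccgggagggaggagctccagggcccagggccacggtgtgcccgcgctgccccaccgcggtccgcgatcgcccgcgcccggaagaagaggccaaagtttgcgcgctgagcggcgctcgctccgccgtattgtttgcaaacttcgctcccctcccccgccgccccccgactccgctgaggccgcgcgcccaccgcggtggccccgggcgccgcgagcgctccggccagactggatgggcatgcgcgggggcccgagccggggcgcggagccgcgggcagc
Tcf7l2 (chr19:55741560-55741859, plus strand): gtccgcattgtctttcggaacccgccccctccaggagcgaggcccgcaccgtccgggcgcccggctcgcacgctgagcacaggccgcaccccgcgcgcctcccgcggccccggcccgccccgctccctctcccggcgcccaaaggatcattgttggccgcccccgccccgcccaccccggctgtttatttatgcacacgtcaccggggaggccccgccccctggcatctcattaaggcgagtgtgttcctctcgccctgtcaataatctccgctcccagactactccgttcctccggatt
Axin2 (chr11:108920099-108920398, plus strand): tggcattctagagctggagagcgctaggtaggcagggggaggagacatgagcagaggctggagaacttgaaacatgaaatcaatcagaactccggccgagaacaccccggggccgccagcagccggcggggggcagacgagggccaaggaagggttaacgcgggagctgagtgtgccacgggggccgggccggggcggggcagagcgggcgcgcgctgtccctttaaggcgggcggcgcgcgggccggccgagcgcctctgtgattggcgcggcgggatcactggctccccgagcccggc

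The letters of these windows were rich in G and C and held few E-boxes. G and C made up 75.7% of the Fzd5 window, 83.3% of Wnt9a, 77.7% of Fzd10 and 70% of both Tcf7l2 and Axin2, against a median of 68% over all promoters in shared regions and 56.3% over all promoters. The first base of the single E-box was at -20 from the start of Fzd5 (CAGGTG) and at -240 in Fzd10 (CAGCTG), and Wnt9a had CACGTG at -228 and CAGCTG at -74. Tcf7l2 and Axin2 had none in the window. Both strands were searched with CANNTG, which reads the same way on either strand. It was found in 10 of the 14 WNT promoters whose start lay in a shared region (71.4%, several genes having more than 1 entry), against 63.4% of all promoters in shared regions and 69% of all 21263 promoters. CACCTG or its complement CAGGTG was in 4 of the 14 (28.6%), against 22.9% of all promoters in shared regions and 19.7% of all promoters. CATCTG or CAGATG was in 1 of the 14 (7.14%), against 11.4% and 14.6% of the same sets. CAGCTG was in 3 (21.4%), against 17.5% and 15.6%, and CATATG was in none, against 1.24% and 3.19%. All 4 of these are forms of CANNTG and overlap it. A pair of CANNTG motifs with 5 bases between them was in none of the 14, against 0.857% and 0.663%. The TCF/LEF motif CTTTGAT or CTTTGTT, with their complements, was in 1 (7.14%), against 4.02% of all promoters in shared regions and 8.06% of all promoters. GATAA, taken as a motif of an unrelated factor family, was in 1 (7.14%), against 9.14% and 22.5%. With 14 promoters, 1 promoter is a step of 7.14%. Only these windows were searched, and a match or its absence says nothing of the factor itself.

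Among the ligands, Wnt10a had the strongest region of any WNT gene. The region lay 4079 bp beyond the gene, on the side away from Wnt6 (chr1:74805124-74809574), with folds of 103, 283, 249 and 56.6 in OE 1 to 4. Its mean percentile of fold within the OE lists was 99.04, which placed it at rank 195 of the 10375 shared regions, and the 4 summits fell within 8 bp. Wnt10a, a ligand of ectodermal organs and teeth, had further regions 20964 bp beyond it (folds of 12.8, 38.8, 42.1 and 7.67) and inside it 910 bp from its end (8.98, 10.8, 8.58 and 6.81). The more distant of these was 29889 bp from the next gene, Cdk5r2. The neighbouring ligand gene Wnt6, 6697 bp away, had 1 region at 280 bp from its listed start, with folds of 18.97, 7.21, 6.83 and 9.99.

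Wnt11, a ligand best known for β-catenin-independent signalling and cell movement at gastrulation, had 4 regions, the most of any WNT gene. The region first by mean percentile (91.5), 8401 bp downstream (chr7:98862737-98865095), had folds of 37.9, 20.4, 14.8 and 24.97 in OE 1 to 4. The region 5958 bp upstream (chr7:98827902-98829718) had a mean percentile of 90.1 but a higher mean fold, 41.9 against 24.5, with 26.95, 62.97, 61.6 and 15.9. Those inside the gene had 16.97, 63.8, 45.5 and 11.4, and 14.97, 31.7, 32.7 and 5.90. The downstream region was thus higher in OE 1 and OE 4, and the other 3 were higher in OE 2 and OE 3.

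Wnt10b, a ligand known from mesenchymal lineage choice, had a region inside the gene (chr15:98775489-98777845) with folds in a narrow range, 32.4, 23.2, 24.6 and 37.2 in OE 1 to 4 (mean 29.4 ± 6.63, SD, n = 4). Wnt1, the midbrain and neural crest ligand 11651 bp from Wnt10b, had no shared region. Wnt1 had 1, 3, 2 and 0 peaks in OE 1 to 4, with a best fold of 21.0 in OE 2.

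Wnt8a, a ligand of the early primitive streak, had a region 6483 bp away from it with folds of 17.97, 48.1, 40.5 and 15.9 in OE 1 to 4, and the gene on the other side, Fam13b, was 12797 bp away. Wnt3, which is needed for the primitive streak, had 2 regions inside its body, with folds of 14.97, 33.1, 30.04 and 9.08 at 3873 bp from the listed start and of 18.97, 6.74, 7.47 and 21.8 farther in. The first of these Wnt3 regions was 2776 bp from the neighbour Wnt9b, whose gene model overlaps that of Wnt3. Wnt9b itself had a weak region 15 bp from a listed start (12.5, 3.92, 4.61 and 8.63). Wnt9a had 3 regions, of which the leading lay 14548 bp downstream (chr11:59347481-59348601; folds of 13.97, 101.6, 71.5 and 13.6) and another covered the start shown above (30.9, 9.40, 10.01 and 14.98). The last, inside the gene, had 5.99, 12.2, 15.4 and 6.81. Wnt3a, its neighbour across 16098 bp and a ligand of the tail bud, had 3, 7, 5 and 1 peaks in OE 1 to 4 but no site shared by all 4.

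The remaining ligands with a region were Wnt5b (3 regions), Wnt7b (2), Wnt7a (1) and Wnt4 (1). At Wnt5b the leading region had folds of 14.5, 50.2, 39.9 and 7.72 in OE 1 to 4. Another Wnt5b region (26.95, 6.90, 5.56 and 18.2) coincided with an end of Fbxl14, a gene nested inside the Wnt5b gene model, and could as well be counted there. The last Wnt5b region, 49 bp from a listed start, had 10.98, 10.97, 18.1 and 5.45. The region of Wnt7b next to its gene end had 23.96, 10.8, 8.58 and 21.3, and that at 44310 bp had 26.95, 3.29, 3.97 and 17.7, so both were higher in OE 1 and OE 4. Wnt7a, a ligand of limb and neural patterning, had 21.96, 5.64, 5.40 and 18.2 at 309 bp upstream of its start. The region of Wnt4, 70090 bp upstream, had 10.5, 24.9, 25.1 and 8.17.

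The Frizzled genes encode the WNT-binding receptors, and 8 of the 10 had shared regions. Fzd1 had the strongest site after that of Wnt10a, 67182 bp downstream of the gene (chr5:4685857-4687372), with folds of 62.9, 229, 147 and 32.7 in OE 1 to 4 and a rank of 473. Another Fzd1 region at 11059 bp had 7.99, 30.7, 19.7 and 5.30. Fzd2 carried a region across its end (chr11:102602632-102605506), with folds of 32.9, 24.4, 32.9 and 22.2. The spread at Fzd2 was small (mean 28.1 ± 5.60, SD, n = 4), and its mean percentile was 92.4. Fzd8 had a distant region at 15272 bp (12.5, 45.8, 49.7 and 8.52) and one at its end (21.96, 4.39, 4.13 and 22.7), so the libraries that were high at the one were low at the other. Fzd7, a Frizzled of pluripotent cells, had 5, 18, 18 and 2 peaks but a single shared region, 58664 bp upstream (7.99, 19.1, 19.5 and 6.81). Its other neighbour, Cdk15, was 70986 bp from that region.

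Fzd3, Fzd5, Fzd9 and Fzd10 had regions at an end of the gene body with one pattern. Those of Fzd5, Fzd9 and Fzd10 lay 388, 7 and 0 bp from a listed start. At Fzd5, a receptor of eye and yolk sac development, the folds were 36.4, 14.1, 9.06 and 30.4 in OE 1 to 4. At Fzd10 they were 27.4, 8.93, 10.3 and 13.6, at Fzd9 26.5, 4.07, 4.29 and 18.6, and at Fzd3, which acts in axon guidance and cell polarity, 23.5, 3.45, 5.09 and 13.2. At all 4 of these ends, OE 1 and OE 4 were above OE 2 and OE 3. A weaker Fzd10 region, 1719 bp downstream, had 7.99, 13.6, 6.67 and 5.45. The co-receptor gene Lrp5 had a region at its end with 39.4, 6.27, 6.83 and 16.3, and another deep inside with 15.5, 31.8, 21.8 and 5.90. Fzd4 had 0, 2, 1 and 0 peaks, with best folds of 38.5 in OE 2 and 15.3 in OE 3, and Fzd6 had none in any library. Lrp6 had 1, 2, 3 and 3 peaks, with best folds of 18.5, 31.5, 32.4 and 11.4, but no site common to all 4 libraries.

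Each of the 8 intracellular genes had a shared region, but those of Axin1, Ctnnb1 and Tcf7 were lost at a −log10 q-value of at least 10, with close summits and with equal lists. Those of Axin2 were lost under the last 2 of these settings, and that of Tcf7l1 with equal lists. Axin2, a scaffold of the destruction complex and a widely used readout of WNT activity, had 6, 16, 11 and 4 peaks in OE 1 to 4, against 1 in KO 2 and 0 in KO 3. These numbers include the site that also had an input peak. Its shared region at the start shown above had folds of 33.4, 5.64, 6.04 and 18.6. Another, 5341 bp upstream of the gene, had 11.9, 11.1, 9.69 and 12.1 and the smallest SD of the 49 (mean 11.2 ± 1.10, SD, n = 4). Apc, the tumour suppressor of the complex, had a strong region at 60297 bp (28.9, 101.7, 64.8 and 17.3; rank 1356) and one at its end (28.9, 5.80, 7.15 and 14.98). Axin1 had the lowest mean percentile of the 49, 32.5, inside the gene, with 9.48, 3.60, 4.13 and 7.26. Ctnnb1 had a region 106 bp from its start (20.5, 3.92, 3.02 and 13.6). A further region lay 138992 bp from Ctnnb1, beyond the 100 kb limit, and was not counted for it, with folds of 24.5, 58.3, 59.6 and 17.7.

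Lef1, the TCF/LEF factor of neural crest and mesoderm, had more peaks than any other WNT gene in each of OE 1 to 3: 7, 37 and 26, with 4 in OE 4. Its leading region lay 75313 bp upstream (chr3:131034327-131036397), with folds of 31.4, 109, 82.8 and 22.7 in OE 1 to 4, and this was the most distant region within the limit. Others were 7934 bp upstream (8.98, 21.3, 18.6 and 5.45) and inside the gene (7.99, 33.2, 25.3 and 7.26). All 3 Lef1 regions were higher in OE 2 and OE 3. Tcf7l2 had its start in a region (38.9, 4.70, 6.36 and 31.8) and another region deep inside the gene (12.5, 28.8, 19.4 and 5.90). Tcf7, the T-cell factor, had 13.5, 5.96, 10.01 and 7.26 at 136 bp from its start. Tcf7l1, the repressor-type factor of pluripotent cells, had 10.98, 12.2, 7.79 and 9.08 deep inside the gene.

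**Figure D3:**
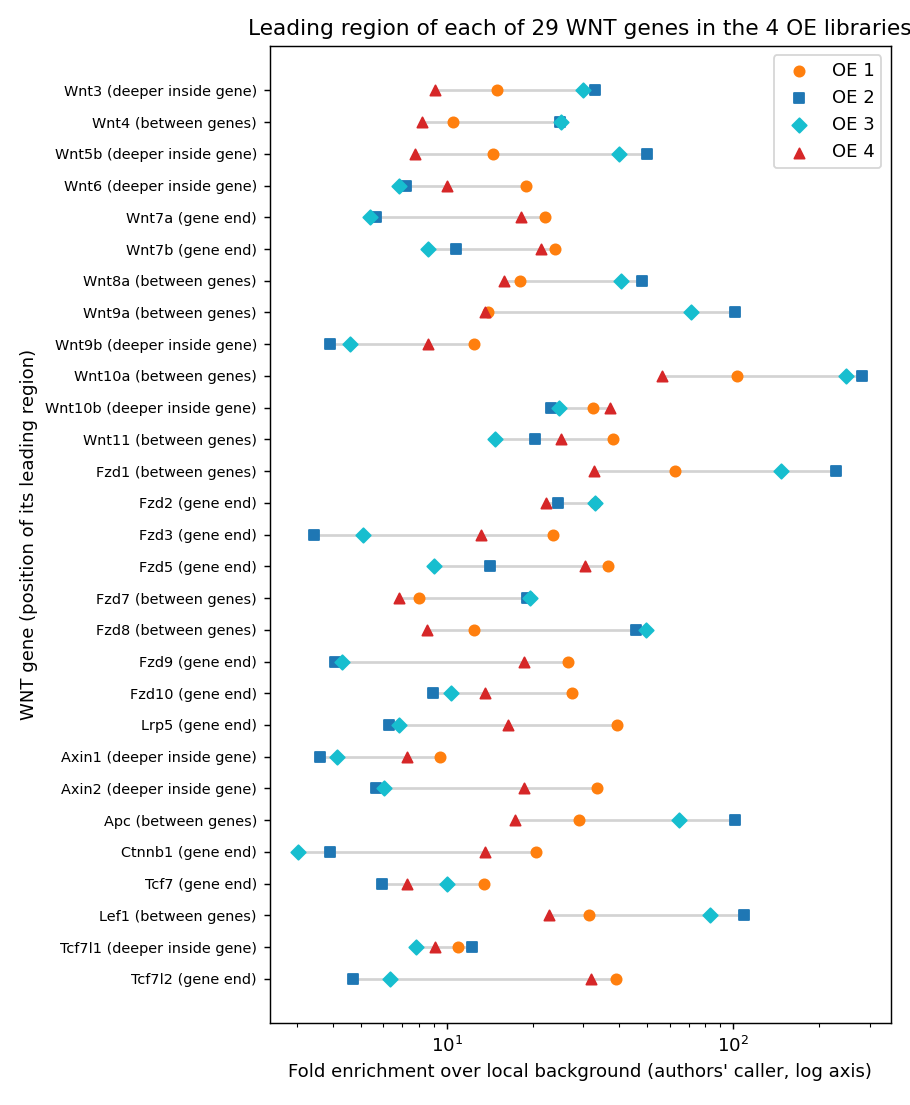
Points give the fold enrichment (x axis, log scale) of the shared region with the highest mean percentile at each of the 29 WNT genes that had one (rows, with its position), in OE 1 (circles), OE 2 (squares), OE 3 (diamonds) and OE 4 (triangles); grey lines join the lowest and highest. Wnt10a and Fzd1 reach the highest folds, 283 and 229 in OE 2, and squares lie left of circles in most rows at gene ends and right of them in most rows between genes.

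The 11 WNT genes without a shared region were Wnt1, Wnt2, Wnt2b, Wnt3a, Wnt5a, Wnt8b, Wnt16, Fzd4, Fzd6, Lrp6 and Dkk1. All but Fzd6 had peaks in both OE 2 and OE 3. Wnt5a, a ligand of β-catenin-independent signalling, had 11 and 14 peaks in OE 2 and OE 3 and 0 in OE 1 and OE 4, with best folds of 13.6 and 9.06 in OE 2 and OE 3. Dkk1, a secreted antagonist that binds LRP5 and LRP6, had 7 and 4 peaks there and 0 in OE 1 and OE 4, with best folds of 12.4 and 6.20. Wnt16 had 3 and 2 peaks there and 0 in OE 1 and OE 4, with higher best folds of 22.3 and 30.04. Wnt2b, Wnt3a and Lrp6 had peaks in all 4 libraries but no shared region. With a region required in only 2 of the 4 libraries, 39 of the 40 WNT genes (97.5%) had one, against 75% of all genes. With 3 of 4 required the count was 33 (82.5%), against 43.1%.

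The 49 regions fell almost evenly into 3 positions: 16 within 1 kb of a gene end (32.7%, 95% Wilson interval 21.2 to 46.6%), 16 deeper inside a gene (32.7%) and 17 between genes (34.7%, interval 22.9 to 48.7%). Over all gene-assigned regions the shares were 34.1%, 38.98% and 26.9%. Gene ends include gene starts, since either end of a gene model counted. Regions of Axin2, Wnt5b, Wnt6 and Wnt9b that lay near a listed start counted as deeper inside the gene, because the gene model reaches farther out. Intervals cover counting error only.

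Position went together with the libraries in which a region was strong. At gene ends the mean fold was higher in OE 1 and OE 4 than in OE 2 and OE 3 for 14 of 16 regions, with a median log2 ratio of OE 2 and OE 3 over OE 1 and OE 4 of -1.81. The exceptions were Fzd2 and Wnt10a. Between genes it was higher in OE 1 and OE 4 for only 3 of 17, those of Wnt7b, Wnt11 and Axin2, and the median log2 ratio was 1.54. Deeper inside genes 7 of 16 were higher in OE 1 and OE 4 (median 0.97). Over all gene-assigned regions the same counts were 78.7% at gene ends, 20.3% between genes and 30.5% deeper inside, so the shares at WNT genes ran the same way as those of the genome.

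By percentile within each list, OE 1 and OE 4 were higher for fewer WNT regions: 12 of 16 at gene ends, 4 of 16 deeper inside genes and 1 of 17 between genes. Over all gene-assigned regions they were higher by percentile for 1879 of 3207, 637 of 3661 and 160 of 2525. The lists differ severalfold in length, so percentiles in different libraries do not measure a change between them. In fragments, the median summit pileup at gene ends was 52.5, 38, 43 and 37 in OE 1 to 4, which is much the same number in the libraries of higher and of lower background. Between genes it was 27, 291, 254 and 29. Of 12 WNT regions within 1 kb of a listed start of their own gene, 11 were higher in OE 1 and OE 4, and Wnt5b was the exception. With OE lists of equal length 1 of 23 WNT regions (4.35%) lay at a gene end, against 14 (60.9%) between genes. The same shares over all gene-assigned regions were not counted with equal lists. That setting kept only the 14078 peaks of smallest p-value in each OE list, so the even split depends on the length of the lists. In the full lists, WNT regions at gene ends had median percentiles of fold of 62.4 in OE 2 and 68.4 in OE 3. OE 1 and OE 4 and OE 2 and OE 3 are sets of libraries told apart by background, not groups of the study, and the part of depth in this contrast was not tested.

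**Figure D4:**
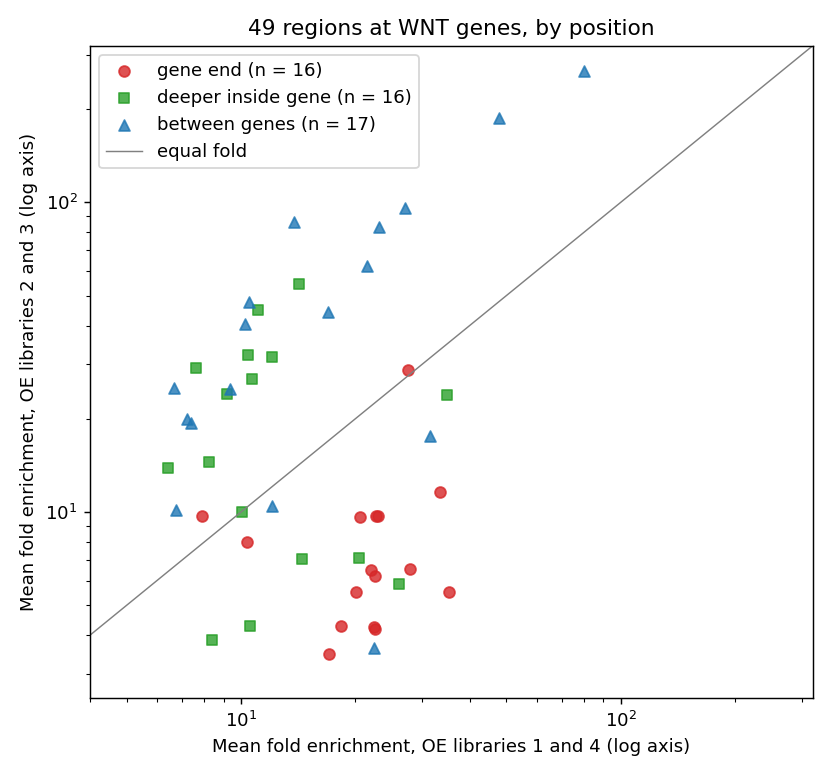
Each point is 1 of the 49 shared regions at WNT genes, placed by its mean fold in OE 1 and OE 4 (x axis) and in OE 2 and OE 3 (y axis), both on log scales, and coloured by position. Of the 16 regions at gene ends (red circles) 14 lie below the line of equal fold, and of the 17 between genes (blue triangles) 14 lie above it.

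Other genes of the pathway, 58 in all, had 7.34 shared regions per megabase of assigned length. A shared region lay at 31 of them (53.4%, against 30.3% of all genes). By role these were 7 of 9 nuclear cofactors and targets, 5 of 7 planar polarity genes, 5 of 9 genes of the R-spondin system, 2 of 4 further receptors, 6 of 13 antagonists, 5 of 13 cytoplasmic transducers and 1 of 3 genes of ligand secretion. No test was made between them. By mean percentile of fold the corepressor gene Tle3 led, with folds of 66.4, 146, 180 and 43.6 in OE 1 to 4 at 79315 bp from the gene. Next came Btrc, which encodes the ubiquitin ligase subunit that recognises β-catenin (133, 23.98, 23.4 and 98.1), and the receptor gene Ror2 (46.9, 163, 133 and 31.8). The antagonist gene Dkk2 had 40.9, 139, 91.5 and 21.3, and the β-catenin cofactor gene Bcl9 had 34.9, 71.6, 71.2 and 22.7. Of these 5, only Btrc was higher in OE 1 and OE 4, and its region lay between genes.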

How the data were processed

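Each library has its own deposited list of MACS2 peaks, 7 lists in all, with no pooling of samples. Trimmomatic, BWA, Picard and MACS2, with builds mm10 and GRCm38.p5, are named per the submitters' processing notes. Versions, settings and the caller's control were not given in the sources used here, and the control can change which peaks are listed and their fold. The ratio used here is the fold deposited with each peak, as made by the authors' caller. The p-value and the q-value of each peak were deposited as −log10 values, and the deposited score, 10 times the −log10 q-value, served only to check the layout. Folds rank peaks within a library and are set side by side between libraries as a description only.

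Peaks were read with Python 3.11.15, numpy 2.4.6, pandas 2.3.3 and scipy 1.17.1, and figures drawn with matplotlib 3.10.9. The summit pileup and background were solved from each fold and p-value and kept where the pileup came out within 0.05 of a whole number (87.1% to 99.997% of peaks per library). OE peaks sharing 1 bp were merged, and a shared region needed all 4 OE libraries and no KO ChIP or input peak. A region's summit was the median of the libraries' best summits, and a summit inside several genes counted for each. Gene positions were those of RefSeq on GRCm38.p6, without strand or exons, and the promoter table gave strand for 28 of the 40 genes. No genome sequence was used here, so sequence under summits was not read. The OE and KO replicate numbers 2 and 3 were not taken to pair the libraries in the main counts, and whether they do could not be told. The region and assignment steps were tested on simulated data. The permutation formula, written out separately, was compared with that of scipy on simulated peak numbers.

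The genes, the 58 other pathway genes, the motifs and the tests were chosen with earlier results of these data known. The rule names every WNT gene, gives all with a shared region their fold in each OE library, and names the 5 other pathway genes with the highest mean percentile of fold.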

Additional observations from a re-analysis of the deposited data

Results flagged for a closer look

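Of 90 sets of 4 OE values examined (peak numbers of the 40 WNT genes, folds of the 49 shared regions and the summed peak number), 1 had a library apart from the others. Wnt2b had 2 peaks in OE 2 and 1 peak in each of OE 1, OE 3 and OE 4, a gap of a single peak. The cut-off flags about 1 in 20 sets drawn from a normal distribution. Peak numbers here are small and often tied, and folds differ between libraries, so that rate need not hold for these sets.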

How the results depend on the processing

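The 29 WNT genes and the 31 other pathway genes with a shared region became 13 and 15 with summits within 100 bp and 16 and 14 with OE lists of equal length. The other pathway genes became 57 with at least 2 of 4 libraries required. Over all genes the share went from 30.3% to 16.8% with close summits, 15.7% with equal lists and 75% with at least 2 of 4 libraries. Leaving out any 1 OE or KO library gave 29 to 32 and 31 to 36, the highest without OE 4, when Wnt1, Wnt3a and Wnt8b were added. The share over all genes was then 30.3% to 40.8%, also highest without OE 4. All 29 kept a region whichever library was left out, 13 did so with close summits and 16 with equal lists, and 10 did so under all 14 alternatives chosen at the start. Leaving out a library, requiring fewer OE libraries or keeping regions with a KO or input peak only loosens the rule. A gene could hardly lose its region under those settings, so its being kept there is no sign of stability. Chosen after seeing the data, OE 2 and OE 3 alone gave 39 WNT genes (97.5%, against 74.4% of all genes). OE 1 and OE 4 alone gave 31 (77.5%, against 33.4%). A q-value cut at −log10 of 10 gave 22 WNT genes (55%, against 20.6% of all genes). A distance limit of 20 kb gave 27 (67.5%, against 28.1%) and gene bodies alone 21 (52.5%, against 21.2%). With equal lists the share of WNT regions at gene ends was 4.35% and between genes 60.9%. These position shares were not counted over all gene-assigned regions with equal lists. The 32 WNT genes above both KO libraries stayed within 1.5 times under every alternative run, and the replicate block over numbers 2 and 3 gave 39. With 1 peak in KO 2 and 0 in KO 3 at WNT genes, these counts are close to counts of genes with an OE peak. In OE 2 and in OE 3, 97.5% of WNT genes had a peak, against 80.6% and 77.5% of all genes. The share over all genes was not counted under these alternatives. Deviations of the libraries numbered 2 and 3 from their group means correlated at 0.0019 over 18190 genes. Only 0.21% of all genes had a peak in KO 2 and 0.0959% in KO 3. Almost all KO deviations are therefore nil, and the correlation cannot show whether the libraries were paired. The lists of OE 1 and OE 4, with the lower background, are the shorter ones, and a shared region needs a peak in each.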
